A study of Mus musculus with 2 samples.

Results

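The class I olfactory receptor genes of mouse chromosome 7 were taken as all genes whose symbol begins with Olfr and a digit and whose start lies between 102 and 105.5 Mb on GRCm38 (mm10). The rule found 158 genes, 126 annotated as protein-coding and 32 as pseudogenes, among 1420 genes with such symbols on the autosomes. Contacts were given in windows of 50 kb. The 158 genes overlapped 49 of the 43941 windows on chromosomes 1 to 19, and every gene had a window. Genes with identical windows were counted as 1 locus, which gave 53 loci, 48 of them in a single window and 5 across a pair of windows. The nearest Olfr genes outside the rule were Olfr521, 2709 kb before the cluster, and Olfr693, 1308 kb after it. The windows of Olfr543, the first gene inside, and Olfr692, the last, held 54.0% and 72.2% of their contacts on the 129 allele, against 54.5% at Olfr521 and 55.0% at Olfr693.

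The study measured promoter contacts by Promoter Capture Hi-C in F121-6, a female hybrid mouse embryonic stem (ES) cell line from a cross of the 129 and Cas strains, so that each cell carries a chromosome set of either strain. The cells were grown on mitomycin-inactivated mouse embryonic fibroblasts with LIF. In this assay crosslinked chromatin is cut with HindIII and religated, and the ligation products that hold a promoter are pulled out with RNA baits. The 2 samples, replicates 1 and 2, formed a single group. Their counts and distances come as 1 pooled value per allele, so the comparison is of the 129 with the Cas allele inside the same cells, with no spread between replicates. F121-6 is a single line, so strain and parent of origin cannot be told apart in it.

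Olfactory receptors are G protein-coupled receptors that bind odorants on the cilia of olfactory sensory neurons. Class I receptors, the family shared with fish, lie in mammals in a single cluster that encloses the beta-globin genes, and each sensory neuron expresses a single receptor gene from a single allele. ES cells are not known to use these receptors. The files hold no expression values and no receptor class, so neither their silence nor the class could be checked.

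The baits of the assay sit at promoters, so the sequence before the receptor genes in the windows described below is shown first. RefSeq (GRCm38.p6) gave a sequence of 250 bases before to 50 after the annotated start for 109 of the 158 genes, 55 on the plus and 54 on the minus strand. In 82 of the 109 the annotated start was an ATG, so these entries begin at a start codon and the 250 bases before it need not be the promoter. The motifs TAATTA (the core bound by homeodomain factors), CCCNNGGG (a core like that of Ebf factors), AAGCTT (the HindIII site) and TATAAA (the TATA box) were searched on both strands and are in capitals. TAATTA can overlap itself, as at Olfr659, and TATAAA can overlap its own reverse strand, as at Olfr657. Olfr656 (chr7:104617407-104617706) and Olfr657 (chr7:104635426-104635725) share a window with unequal contacts, and Olfr663 (chr7:104703319-104703618) lies in another. Olfr659 (chr7:104670454-104670753) lies in the window between these, Olfr692 (chr7:105368078-105368377) ends the cluster, and Olfr570 (chr7:102900092-102900391) is from the window with the lowest 129 share. All 6 are on the plus strand.
Olfr656: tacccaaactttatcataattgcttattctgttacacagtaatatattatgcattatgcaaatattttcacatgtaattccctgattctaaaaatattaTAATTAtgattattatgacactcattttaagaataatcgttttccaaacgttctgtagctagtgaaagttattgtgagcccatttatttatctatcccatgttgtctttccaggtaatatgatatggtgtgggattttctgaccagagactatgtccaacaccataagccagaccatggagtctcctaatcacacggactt
Olfr657: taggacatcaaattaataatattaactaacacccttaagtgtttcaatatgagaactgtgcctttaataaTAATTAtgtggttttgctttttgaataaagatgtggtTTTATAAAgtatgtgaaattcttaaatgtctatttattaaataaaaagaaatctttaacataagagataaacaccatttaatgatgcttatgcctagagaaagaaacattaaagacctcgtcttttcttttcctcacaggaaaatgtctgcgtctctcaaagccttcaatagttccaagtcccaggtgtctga
Olfr659: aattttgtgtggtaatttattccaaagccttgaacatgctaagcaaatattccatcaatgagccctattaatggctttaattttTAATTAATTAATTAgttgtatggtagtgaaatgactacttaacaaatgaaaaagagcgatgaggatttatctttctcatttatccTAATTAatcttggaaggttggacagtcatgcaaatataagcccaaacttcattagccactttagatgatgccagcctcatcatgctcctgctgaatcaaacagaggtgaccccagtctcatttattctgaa
Olfr663: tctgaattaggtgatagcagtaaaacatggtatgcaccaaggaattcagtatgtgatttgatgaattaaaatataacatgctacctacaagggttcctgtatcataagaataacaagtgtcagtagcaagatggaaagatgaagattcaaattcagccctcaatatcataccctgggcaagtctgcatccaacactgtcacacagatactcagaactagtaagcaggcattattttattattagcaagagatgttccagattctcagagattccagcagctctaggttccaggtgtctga
Olfr692: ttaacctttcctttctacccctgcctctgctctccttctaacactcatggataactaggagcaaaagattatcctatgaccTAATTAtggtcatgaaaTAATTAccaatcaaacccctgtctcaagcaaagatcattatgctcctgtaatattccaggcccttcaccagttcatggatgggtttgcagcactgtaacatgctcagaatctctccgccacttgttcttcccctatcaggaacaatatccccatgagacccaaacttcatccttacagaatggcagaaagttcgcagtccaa
Olfr570: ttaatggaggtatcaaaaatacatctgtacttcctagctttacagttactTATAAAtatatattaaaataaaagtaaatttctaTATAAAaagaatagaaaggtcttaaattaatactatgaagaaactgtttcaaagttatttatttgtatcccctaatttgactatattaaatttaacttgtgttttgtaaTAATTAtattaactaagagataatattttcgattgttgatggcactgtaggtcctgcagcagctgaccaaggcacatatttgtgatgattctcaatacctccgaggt

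TAATTA was found at Olfr656, Olfr657, Olfr659, Olfr692 and Olfr570, and none of the 4 motifs at Olfr663. Other receptor genes of the same windows lacked TAATTA, namely Olfr661 beside Olfr659, and Olfr571, Olfr572 and Olfr574 beside Olfr570. A link between the motif and unequal contacts was not tested. Over the 109 receptor sequences, TAATTA was in 14.7%, TATAAA in 39.4%, AAGCTT in 8.26% and CCCNNGGG in 2.75%. Over the 839 sequences of other Olfr genes the shares were 19.1%, 41.2%, 7.39% and 3.10%. Over all 32851 promoters of the RefSeq table they were 5.29%, 13.6%, 7.45% and 13.7%. The receptor sequences were poor in G and C, with a median of 37.3% against 35.0% for other Olfr genes and 52.7% for all promoters, and the part of base composition in these shares was not tested.

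The cluster was dense in promoter contacts. In its 49 windows, 241405 interactions were on 129 and 165256 were on Cas. A median of 4290 on 129 and of 2557 on Cas per window compared with 565 and 405 over all autosomal windows. Summed over both alleles, the median was 6255 interactions in the class I windows (quartiles 3742 and 12470), 3470 in the 422 windows of other autosomal Olfr genes, 1788 in other windows with a protein-coding gene and 974 over all windows. Of the 49 windows, 39 were above the upper quartile of all autosomal windows in summed count and 1 was below the median. A window held between 1 and 5 receptor genes with a median of 3, and windows with 4 or 5 genes had higher median counts than those with fewer. The median summed count was 5114.5 in the 18 windows with 3 receptor genes, 9480 in the 12 with 4 and 12470 in the 9 with 5. The 4 windows with 1 and the 6 with 2 had medians of 5242 and 4430. Across the 49 windows, Spearman's rho between gene number and summed count was 0.32 (Pearson's r 0.30). With the number of starts, counted only for the 109 receptor genes with a RefSeq sequence, rho was 0.41 (r 0.35). These values describe windows of the same pooled libraries, and the part of bait number in the counts was not tested.

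**Figure D1:**
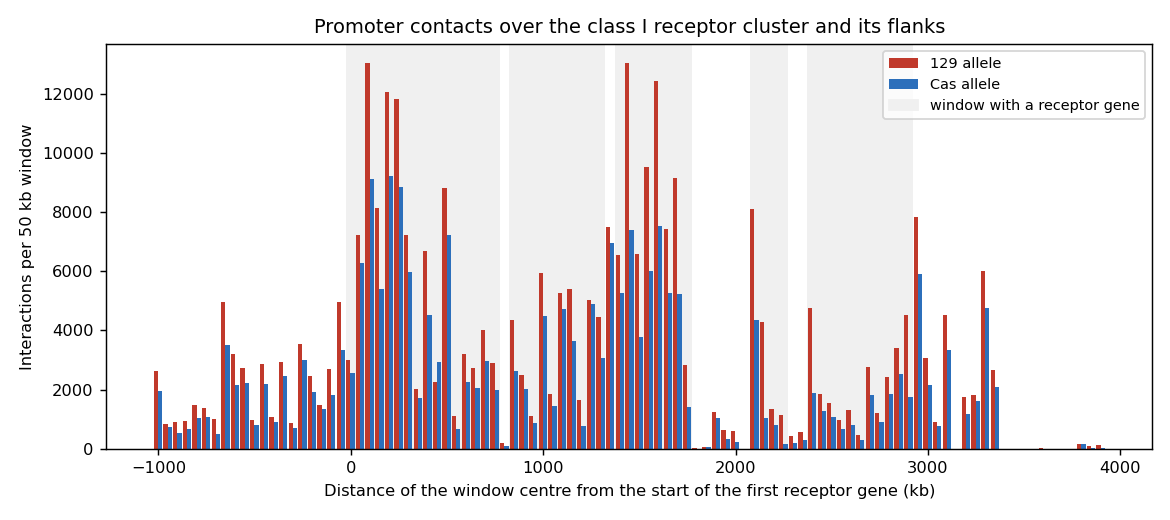
Interactions per window of 50 kb on the 129 allele (red) and the Cas allele (blue) over the cluster and 1 Mb on either side, by distance from the start of the first receptor gene; grey marks windows with a receptor gene. The highest bars are a group near the first gene and a second group after the beta-globin genes. Both are higher on 129 in plain counts, as the autosomes are as a whole (57.6% on 129). Counts are low in the windows of Trim genes that lie between the windows of Olfr650-ps1 and Olfr651.

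Contacts were not spread evenly along the cluster. The highest count was in the window of Olfr549, Olfr550 and Olfr551 (chr7:102550001-102600000), which also holds Trim21, an intracellular antibody receptor gene, with 13025 interactions on 129 and 9118 on Cas. The window of Olfr65, Olfr631, Olfr632 and Olfr633 (chr7:103900001-103950000), just past the globin genes, had 13021 on 129 and 7390 on Cas. By summed count the first of these stood at the 99.99th percentile of all autosomal windows.

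By locus, the largest counts were those of 3 genes that each cross a window border. Their counts are sums over a pair of windows that also hold other receptor genes, so they are not particular to the named gene. Olfr642 had 21941 on 129 and 13538 on Cas, Olfr78 had 19038 and 14813, and Olfr646 had 19860 and 12788. The loci of Olfr642 and Olfr646 share a window and are not independent. Olfr78 encodes a receptor that is also found outside the nose and responds to short-chain fatty acids. The fewest lay in the distal part of the cluster. The locus of Olfr681 and Olfr683 had 466 on 129 and 288 on Cas, that of Olfr662-ps1, Olfr663 and Olfr664 had 1134 and 159, and that of Olfr675 and Olfr676 had 969 and 667. These 3 distal windows hold 3 or 4 receptor genes each, of which 2, 1 and 2 are annotated as protein-coding, in that order. A link between gene number and their low counts was not tested.

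As a whole, the cluster was close to the genome in its balance between the alleles. The 129 allele held 59.4% of the interactions in the class I windows (exact Clopper-Pearson 95% interval 59.2 to 59.5%), 57.4% on the rest of chromosome 7 and 57.6% over all autosomes. Since the share over all autosomes was above an equal one, ratios below are log2(129/Cas) with 1 added to each count, minus the autosomal median of 0.45. On that centred scale the median class I window was at 0.09 (quartiles -0.07 and 0.27), against 0 for all autosomal windows (quartiles -0.19 and 0.22). In 29 of the 49 windows (59.2%) the 129 share was above the autosomal one, against 51.9% of all windows tested. By locus, 30 of 53 were above 0. More interactions on Cas than on 129 in plain counts were seen in 1 window.

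The windows were tested against the autosomal 129 share with a two-sided beta-binomial test, which allows for the spread between windows of like count, with Benjamini-Hochberg adjustment over all 43762 windows with 10 or more interactions. It called 2 of the 49 class I windows at an adjusted p below 0.05, both higher on 129 and neither on Cas. Over all windows it called 0.839%, with 0.663% higher on 129 and 0.176% on Cas. The same 2 class I windows were those that differed by 2-fold or more on the centred scale, against 3.32% of all windows. An exact binomial test, which takes every interaction as independent, called 36 of the 49, 25 higher on 129 and 11 on Cas, but it called 51.4% of all windows as well. With 1 pooled dataset, either test compares the alleles in these libraries and not over independent cultures.

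The window with the largest ratio held Olfr662-ps1, Olfr663 and Olfr664 (chr7:104700001-104750000). On 129 it had 1134 interactions and on Cas 159, so that 87.7% were on 129 (95% interval 85.8 to 89.4%), with a centred log2 ratio of 2.37 and an adjusted p of 3.62e-09 by the beta-binomial test. The second called window held Olfr656, Olfr657 and Olfr658 (chr7:104600001-104650000), with 4290 on 129 and 1027 on Cas. This gave a share of 80.7% (79.6 to 81.7%), a ratio of 1.61 and an adjusted p of 0.00141 by the same test. Between them lies the window of Olfr659, Olfr660-ps1 and Olfr661 (chr7:104650001-104700000), which had 1355 on 129 and 807 on Cas and an adjusted p of 1. Its ratio was 0.29, so the imbalance did not run evenly through the 3 adjoining windows.

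Set against the windows before them, the called windows differed more in the Cas count. At Olfr663 the 129 count was 0.837 times that of the Olfr659 window before it, while the Cas count was 0.197 times as high. At Olfr656 and Olfr657 the 129 count was 0.528 times that of the window of Olfr651 to Olfr655, and the Cas count 0.236 times. Set against the windows after them, they differed more in the 129 count. It was 3.17 times that of the Olfr659 window at Olfr656, with 1.27 times on Cas, and at Olfr663 it was 2.63 times that of the window of the deubiquitinase gene Usp17le, with 0.776 times on Cas. Which allele departed from its surroundings thus depended on the neighbour chosen.

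**Figure D2:**
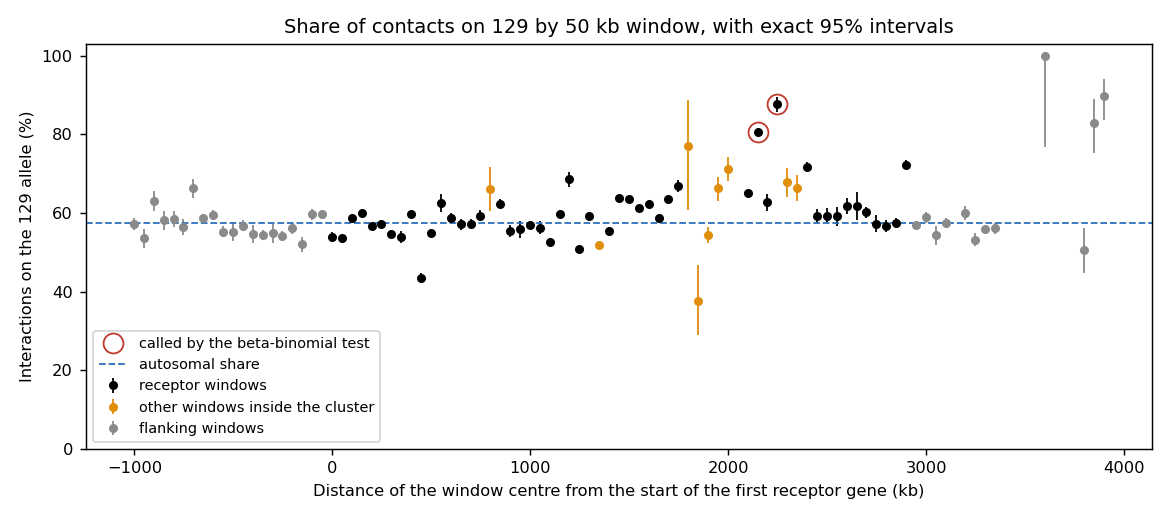
Share of interactions on the 129 allele in each window of 50 kb, with exact 95% intervals for counting error, by distance from the start of the first receptor gene. Most receptor windows lie near the dashed autosomal share of 57.6%, and the 2 circled windows at 80.7% and 87.7% are those called by the beta-binomial test.

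The next largest ratios towards 129 were not called. The window of Olfr692 (chr7:105350001-105400000), the last receptor gene, had 4519 on 129 and 1736 on Cas, or 72.2% on 129, and an adjusted p of 0.0779 by the beta-binomial test. It also holds part of Fam160a2, a broadly expressed gene. The window of Olfr665, Olfr666 and the deubiquitinase gene Usp17la (chr7:104850001-104900000) had 4772 on 129 and 1872 on Cas, or 71.8% on 129, and an adjusted p of 0.104 by that test. Both windows stood above their neighbours in share, since those before and after Olfr692 were at 57.4% and 57.1%, and those before and after Olfr666 at 66.5% and 59.3%. The locus of Olfr623 and Olfr624 had 1661 on 129 and 761 on Cas, and the locus of Olfr650-ps1, whose window also holds Trim6 and part of Trim34a, had 2828 and 1401.

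Towards Cas, the largest ratio was in the window of Olfr570, Olfr571, Olfr572, Olfr573-ps1 and Olfr574 (chr7:102900001-102950000). On 129 it had 2259 interactions and on Cas 2943, so that 43.4% were on 129 (42.1 to 44.8%), with a centred log2 ratio of -0.83 and an adjusted p of 0.557 by the beta-binomial test. Its neighbours had more contacts on both alleles, with 6668 on 129 and 4514 on Cas before it and 8812 and 7216 after it. Against the Olfr570 window, the one before held 2.95 times the count on 129 and 1.53 times on Cas. The one after held 3.90 and 2.45 times, so the 129 count differed more from both neighbours. In all, 23 loci were below 0. The next 5 were named because their ratios were the next lowest, and had shares between 50.7% and 54.0%. These lie below the lower quartile of autosomal windows (54.5%). Olfr243, Olfr628 and Olfr629 had 5043 on 129 and 4900 on Cas (50.7%), and Olfr613 to Olfr618 had 5256 and 4729 (52.6%). The loci of Olfr547, of Olfr564 and of Olfr543 to Olfr545 lay between 53.6% and 54.0%.

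The cluster was then described in 3 stretches, divided by the beta-globin and the Trim genes, a division chosen after the values were seen and so given without a test. The 26 receptor windows before the globin genes, from Olfr543 to Olfr67, had 133759 on 129 and 102234 on Cas (56.7% on 129), and 10 of them were above 0 on the centred scale. The 8 windows from the globin genes to the Trim genes, from Olfr66 to Olfr650-ps1, had 67497 and 41861 (61.7%), with 7 above 0. The 15 windows after the Trim genes, from Olfr651 to Olfr692, had 40149 and 21161 (65.5%), with 12 above 0.

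The last value rested in part on a few windows. Without the 2 called windows the share after the Trim genes was 63.5%, and without the 4 windows of largest ratio it was 60.8%, with 8 of the remaining 11 above 0. Those 4 windows held 14715 interactions on 129 and 4794 on Cas. The median centred ratio was -0.04 before the globin genes, 0.31 from globin to Trim and 0.24 after Trim. Across the 44 pairs of adjoining receptor windows, the ratios had a Spearman's rho of 0.33 (Pearson's r 0.21), given as a description, since adjoining windows can share interactions.

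Genes of other families inside the cluster were examined next. The beta-globin genes encode the beta chains of embryonic and adult haemoglobin and are used in red blood cells. Hbb-bt, Hbb-bs, Hbb-bh2 and Hbb-bh1 share a window without a receptor gene (chr7:103800001-103850000), which had 7477 on 129 and 6945 on Cas, or 51.8% on 129, and a centred ratio of -0.35. Hbb-y, an embryonic globin gene, shares its window with Olfr66 and Olfr64 and had 6543 and 5266, with a ratio of -0.14. All 5 globin genes with a window were thus below 0 while the 7 receptor windows that follow were above it. The beta-binomial test called neither globin window. The exact binomial test called both, higher on Cas, as it did 24.3% of all autosomal windows.

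The Trim genes encode proteins with a RING finger, several of which act in antiviral defence. Of 12 Trim genes with a window, 7 were above 0 and the median ratio was 0.03. Of the 8 windows they cover, 3 with a receptor gene too, the beta-binomial test called none. The exact binomial test called all 8, 5 higher on 129 and 3 on Cas, and it called 51.4% of all autosomal windows. Among the Trim windows were the emptiest windows inside the cluster. The window of Trim5 and of parts of Trim34a and Trim12a (chr7:104250001-104300000) had 30 interactions on 129 and 9 on Cas, and the next one (chr7:104300001-104350000), with Trim34b, had 45 and 75. Their centred ratios of 1.18 and -1.18 pointed opposite ways, each with an adjusted p of 1 by the beta-binomial test. Trim30a and Trim30d, which lie nearest the last stretch of receptors, had 1223 and 560, and 601 and 243. The sum for Trim30a includes the window of Trim30d, so they are not independent.

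Of the 5 Usp17l genes, which encode deubiquitinases, 4 were above 0 and 1, Usp17lc beside Olfr605, was at -0.11. Usp17lb had 557 interactions on 129 and 281 on Cas, and Usp17ld had 194 and 99.

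Outside the cluster the balance was near the autosomal value. The 20 windows within 1 Mb before the cluster and the 12 of the table within 1 Mb after it had 72904 on 129 and 54863 on Cas, or 57.1% on 129. The beta-binomial test called none of these 32 windows, and the same test with a single overdispersion called 2. The exact binomial test called 19, 9 higher on 129 and 10 on Cas. Over all autosomal windows the 3 tests called 0.839%, 0.957% and 51.4%, in that order. The 4 farthest of the flanking windows, with 14 to 303 interactions each, ran from 50.5% to 100% on 129. Of 16 broadly expressed genes listed for the flanks, 15 had a window and 3 were above 0, with a median ratio of -0.12. Several of these genes share a window and are not independent, such as Rrp8, Ilk and Taf10, and the sum for Fam160a2 includes the window of Olfr692. Rrm1, a subunit gene of ribonucleotide reductase that reaches into the window of Olfr543, had 7944 and 5906, and Stim1, a calcium sensor gene of the endoplasmic reticulum, had 11576 and 8457. Just after the last receptor, the window of Cnga4, which encodes a subunit of the olfactory transduction channel, had 7829 on 129 and 5894 on Cas and a ratio of -0.04.

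Genes elsewhere that act in receptor choice or signalling were set beside the cluster. Of 21 such genes, 19 had a window, and 7 were above 0, with a median ratio of -0.04 and a range of -0.27 to 0.27. Of the 48 windows they cover, the beta-binomial test called none. The exact binomial test called 26, 9 higher on 129 and 17 on Cas. Over all autosomal windows it called 51.4%, with 27.1% higher on 129 and 24.3% on Cas. Lhx2 and Ebf1, transcription factors of olfactory neurons, had 2036 on 129 and 1710 on Cas, and 13069 and 10925. Bcl11b, a factor tied to the choice between receptor classes, had 2756 and 1943, and Adcy3, the adenylyl cyclase of odour transduction, had 2945 and 2352.

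Receptor windows on chromosomes 2, 9, 14 and 19, and the others of chromosome 7, had a like balance but fewer contacts. The 129 share was 59.4% over the class I windows, against 60.7% over the 50 Olfr windows of chromosome 2, 59.6% over the 78 of chromosome 9, 59.3% over the 51 of chromosomes 14 and 19 and 59.6% over the 55 others of chromosome 7. Over all 422 other autosomal Olfr windows it was 58.7%, below each of these 4 sets. The Olfr windows outside the 4 sets thus had a lower share than any of them. Of the 422, the beta-binomial test called 13 (3.08%), all higher on 129. The class I windows, with 2 of 49 called, had a share of calls close to that of other receptor windows. In summed count the medians were 6255 for class I and 3229, 3957, 3490 and 2696 for the 4 other sets in that order. No test of these differences was made, since windows of a cluster share interactions.

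**Figure D3:**
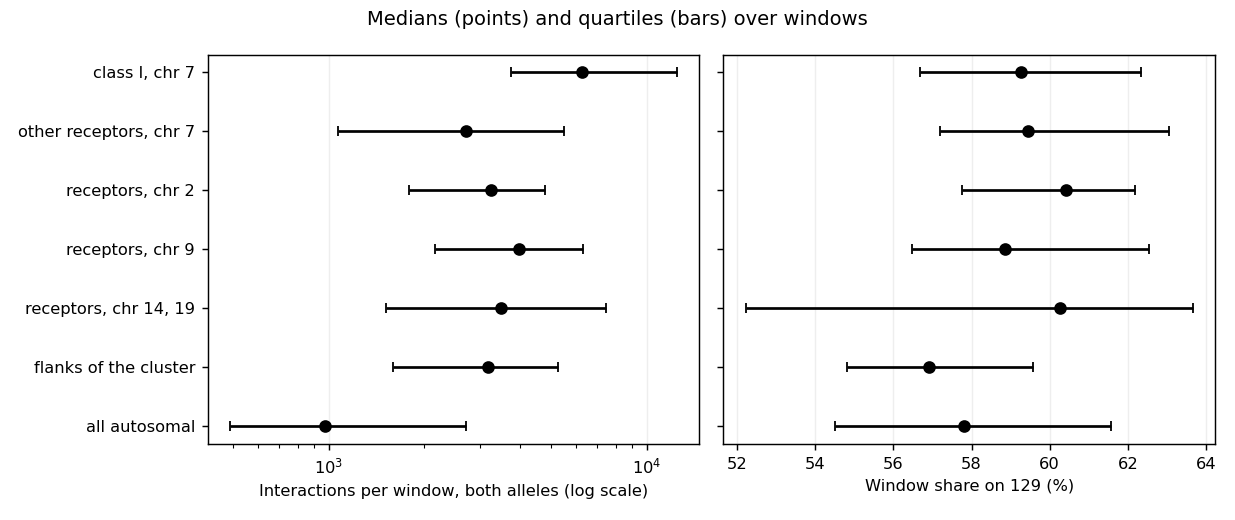
Medians (points) and quartiles (bars) over windows of the summed interactions (left, log scale) and of the share on the 129 allele in percent (right), for the class I receptor windows, other receptor windows, the flanks and all autosomal windows. Of the sets shown, the class I windows have the highest median count, 6255. Their median share lies among those of the other receptor sets shown, which leave out the receptor windows of the remaining chromosomes.

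Interaction distances were compared in the same windows. The deposited distance of a window, taken to be in bp, is a single value per allele, and the sources used here do not say what average it is, so no test was possible. The median over the 49 class I windows was 172 kb on 129 and 163 kb on Cas, against 348 and 347.5 kb over the autosomal windows in which both alleles had at least 10 interactions. The distance ran from 38 to 620 kb on 129 and from 26 to 654 kb on Cas. Rich windows had short distances: across the 49 windows, Spearman's rho between the mean log2 distance and the log2 summed count was -0.78 (Pearson's r -0.76). The richest window, that of Olfr549 to Olfr551, had 39 kb on 129 and 52 kb on Cas. The window of Olfr670 to Olfr672, with 2607 interactions over both alleles, had 620 and 624 kb.

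Between the alleles, the median log2 distance ratio of 129 to Cas was 0.04, against 0 over all windows. The distance was longer on 129 in 27 class I windows (55.1%), against 48.7% of all windows. On Cas it was longer in 21, and 1 window had equal distances. A ratio of 2-fold or more was reached in 3 of the 49 windows, all longer on Cas, against 17.1% of all windows for either allele. The 422 windows of other autosomal Olfr genes were like the class I windows in these values, with medians of 158 kb on 129 and 150 kb on Cas, 58.5% longer on 129 and 6.16% with a ratio of 2-fold or more.

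**Figure D4:**
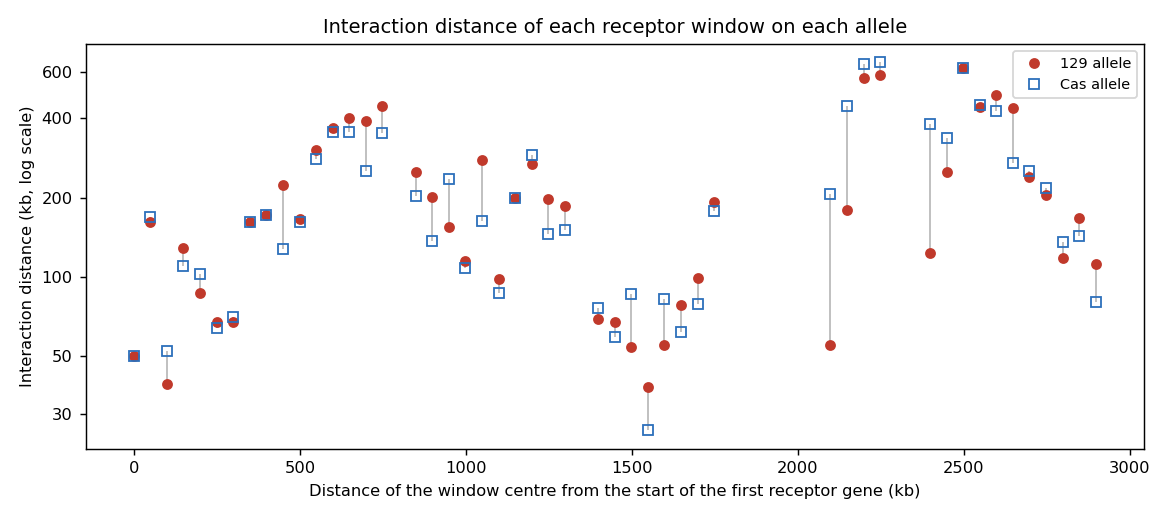
Interaction distance in kb (log scale) of each of the 49 receptor windows on the 129 allele (filled red circles) and the Cas allele (open blue squares), joined by a grey line, by distance from the start of the first receptor gene. The symbols lie close together in most windows and far apart in 3 windows after the Trim genes, where Cas is longer.

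All 3 lay after the Trim genes. The window of Olfr651 to Olfr655 (chr7:104550001-104600000) had 55 kb on 129 against 206.5 kb on Cas, a log2 ratio of -1.91, with 8118 interactions on 129 and 4352 on Cas. The window of Olfr665 and Olfr666 had 123 and 382 kb, a ratio of -1.63. The called window of Olfr656 to Olfr658 had 179 and 445 kb, a ratio of -1.31. The other called window, that of Olfr663, had long distances on both alleles, 586 kb on 129 and 654 kb on Cas, a ratio of -0.16.

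The opposite direction was milder. The window of Olfr570 to Olfr574, lowest in 129 share, had 223 kb on 129 and 127 kb on Cas, a ratio of 0.81. The windows of Olfr610 to Olfr612 had 279 and 163 kb, of Olfr681 and Olfr683 438 and 270 kb, and of Olfr589 to Olfr592 390 and 253 kb. The window of Olfr634-ps1 to Olfr637-ps1 had the next largest ratio towards Cas, with 54 kb on 129 and 86 kb on Cas.

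Count and distance ratios were then set against each other. Across the 49 windows Pearson's r was -0.39 and Spearman's rho -0.20, and over 43555 autosomal windows they were -0.10 and -0.06. The allele with the higher count relative to the autosomal median had the shorter distance in 24 windows and the longer one in 24, with equal distances in the last. Of the 15 windows after the Trim genes, 11 had the longer distance on Cas, with medians of 240 kb on 129 and 338 kb on Cas. Of the 26 before the globin genes, 18 had the longer distance on 129, with medians of 178.5 and 162 kb. These windows share interactions and libraries, and the counts are given as a description.

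**Figure D5:**
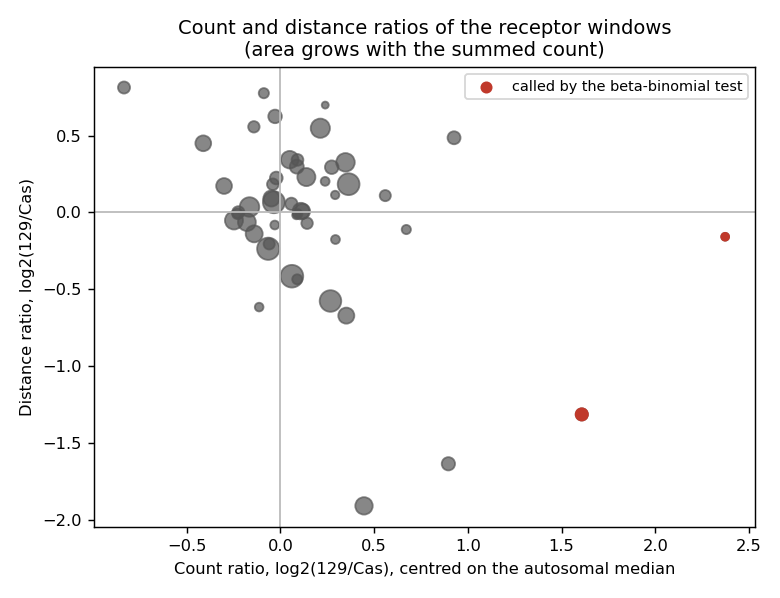
Distance ratio, log2(129/Cas), against the count ratio, log2(129/Cas) centred on the autosomal median, for the 49 receptor windows, with symbol area growing with the summed count and the 2 called windows in red. Most windows lie near the origin, and the 3 lowest points are windows with more contacts and shorter distances on 129.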

How the data were processed

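The authors deposited 1 table with whole-number interaction counts and a distance on either allele of every 50 kb window, with no normalisation stated or visible in the counts. Reads were aligned to mm10 with Bowtie2, per the submitters' processing notes. The sources used here do not give allele assignment, filters, duplicate removal or the merging of the samples. The labels list the same columns for either sample, so a column was read as their pooled value, and nothing says that they came from separate cultures. Counts summed to 50842396 on 129 and 37470557 on Cas. Intervals cover counting error only, and an interaction may be counted at both ends. Cas reads may map less well to the reference, and reads that match several copies of a gene family may be lost, neither of which was tested.

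Genes were placed by RefSeq positions on GRCm38, and strand was known for 109 of 158. The overdispersion of the beta-binomial test was estimated in 10 classes of summed count, from 0.0083 to 0.0504. The test was also run on counts simulated from the same model with the fitted overdispersion. Such a run cannot show how well the model describes real windows. Distances were compared where both alleles had at least 10 interactions. Alternatives were other error models, null shares, count minimums, a threshold of 0.01, pseudocounts, centrings and member definitions. Named loci had 30 or more interactions: the 6 of largest count ratio per direction, the 3 richest, the 3 sparsest and, at 20 or more per allele, the 4 of largest distance ratio per direction. Other named windows and the printed sequences were chosen after their values were seen. The members, lists and tests were chosen with earlier results of these data known. Software was scipy 1.17.1, pandas 2.3.3 and numpy 2.4.6 under Python 3.11.15, with figures by matplotlib 3.10.9.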

Additional observations from a re-analysis of the deposited data

How the results depend on the processing

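The share of contacts on 129 over the class I windows, 59.4%, was 59.1% in windows with no other protein-coding gene, 60.2% as the mean of the window shares and, in a setting chosen after seeing the data, 59.0% without the 2 called windows. These moved past the counting interval, and the other 3 settings did not. The median centred ratio of 0.09 was 0.54 when not centred, which only adds back the autosomal median, and stayed within 0.08 to 0.09 otherwise. Of the 49 windows, 2 were called by the beta-binomial test, 36 by the exact binomial test and 1, that of Olfr663, when both alleles were given an equal share. The other 8 settings called the same 2. The median distance ratio ran from 0.02 to 0.06, and the number of windows longer on 129 from 23 of 39 to 27 of 49. No paired analysis was possible because the columns pool both replicates, and for the same reason no replicate was left out. Low counts limit the Trim windows with 39 and 120 interactions and the flanking window with 14.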
